A study of Mus musculus with 9 samples.

Results

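This comparison set colon organoids without the aryl hydrocarbon receptor (AHR KO) against wildtype (WT) organoids, both given the solvent DMSO for 4 h with no receptor ligand added. Its members were the 4 libraries whose labels gave DMSO as the treatment, out of 9 libraries in all: AHR KO replicates 1 and 3 and WT replicates 2 and 3. The other 5 libraries, 2 AHR KO and 3 WT, came from organoids given 5 nM of the AHR ligand 6-formylindolo[3,2-b]carbazole (FICZ) for 4 h. They entered the same filter and fit, and so bear on which genes were tested and on the p-values. Otherwise they are used here only to set the DMSO difference beside the difference under FICZ. RNA-seq was done on organoids grown from crypts of the whole colon of C57BL/6 mice in WENR medium, which holds Wnt3a, EGF, Noggin, R-spondin1, nicotinamide and inhibitors of the kinases p38 and ALK5 and keeps the cells in a stem state.

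AHR KO organoids came from mice with floxed Ahr alleles and Cre recombinase driven by the Villin promoter, which acts in the intestinal epithelium, and WT organoids came from wildtype littermates. Ages were not given in the sources used here. All groups shared the growth factors, the ALK5 inhibitor, which blocks TGF-beta receptor signalling, and DMSO, which also carries FICZ. The libraries are 2 per genotype, and the same numbered organoid lines appear under DMSO and FICZ. The labels do not say which animal each line came from, so p-values measure only the spread between these libraries.

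AHR is a transcription factor of the cytosol that is held by HSP90 and co-chaperones until a ligand, such as a tryptophan metabolite or a planar aromatic compound, lets it enter the nucleus. There it pairs with ARNT and binds the core sequence GCGTG near genes of foreign compound metabolism, among them its own repressor. In the intestinal epithelium it is known for sensing dietary and microbial indoles and for limiting stem cell proliferation.

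The normalised counts of the 4 DMSO libraries summed to 24050546 to 25033827 (one sum per library, over all genes). Across the 12741 genes with a mean of at least 10 normalised counts over the 9 libraries, log2 values correlated at 0.9908 between the WT libraries and 0.9913 between the AHR KO libraries. Pairs of a WT and an AHR KO library correlated at 0.9793 to 0.9816. The epithelial markers summed to 362871 to 382912.5 normalised counts in WT and 350441 to 352006 in AHR KO. Genes that define other tissues were at or near 0: of the immune markers 6 of 10 were listed at 0 in all 4 libraries with sums of 9.3 to 15.5, mostly Csf1r, and the smooth muscle markers summed to 3.8 to 5.8. Endothelial markers summed to 57.6 and 26.0 in WT and 18.4 and 20.6 in AHR KO, mostly Vwf, and neuronal markers to 79.0 and 82.7 and to 16.3 and 43.0, mostly Elavl4. The fibroblast markers summed to 993.3 and 976.1 in WT and 494.6 and 421.6 in AHR KO, almost wholly Fbln1 and Pdgfrb, while Col1a1, Col1a2, Col3a1, Dcn and Pdgfra reached at most 2.6 and Lum and Thy1 were at 0. In bulk RNA, fewer cells of a type and less RNA per cell cannot be told apart.

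In AHR KO organoids without added ligand 7 of 12 tested AHR target genes, 14 of 34 transcription factors that mark intestinal identity, 12 of 32 mature colonocyte genes and 8 of 15 goblet cell genes were called lower. The 7 AHR target genes include Ahrr, which was at or near 0 in all 4 DMSO libraries. Called higher were 10 of 18 YAP/TEAD target genes, 10 of 24 fetal-like genes and 13 of 34 genes of the extracellular matrix, its proteases and EMT (epithelial to mesenchymal transition). Most of these counts were smaller with 1 library left out, as given beside each list. Of the 12741 genes, limma called 1153 (9.05%) at a Benjamini-Hochberg adjusted p below 0.05. In AHR KO 537 of them (4.21% of genes tested) were higher and 616 (4.83%) were lower. The change was 2-fold or more in 321 genes (2.52%), of which 166 were higher and 155 lower, and the median size of a called change was 0.54 on the log2 scale. The 2 genotypes did not overlap in any of the 1153 called genes, but they also did not overlap in 7390 of the 12741 genes (58%). The number called was 450 without AHR KO replicate 1, 389 without AHR KO replicate 3, 557 without WT replicate 2 and 581 without WT replicate 3. Below, "rose" and "fell" describe called genes only, values are normalised counts with WT replicates 2 and 3 before AHR KO replicates 1 and 3, and log2 differences are AHR KO minus WT on the log2(value + 1) scale.

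**Figure D1:**
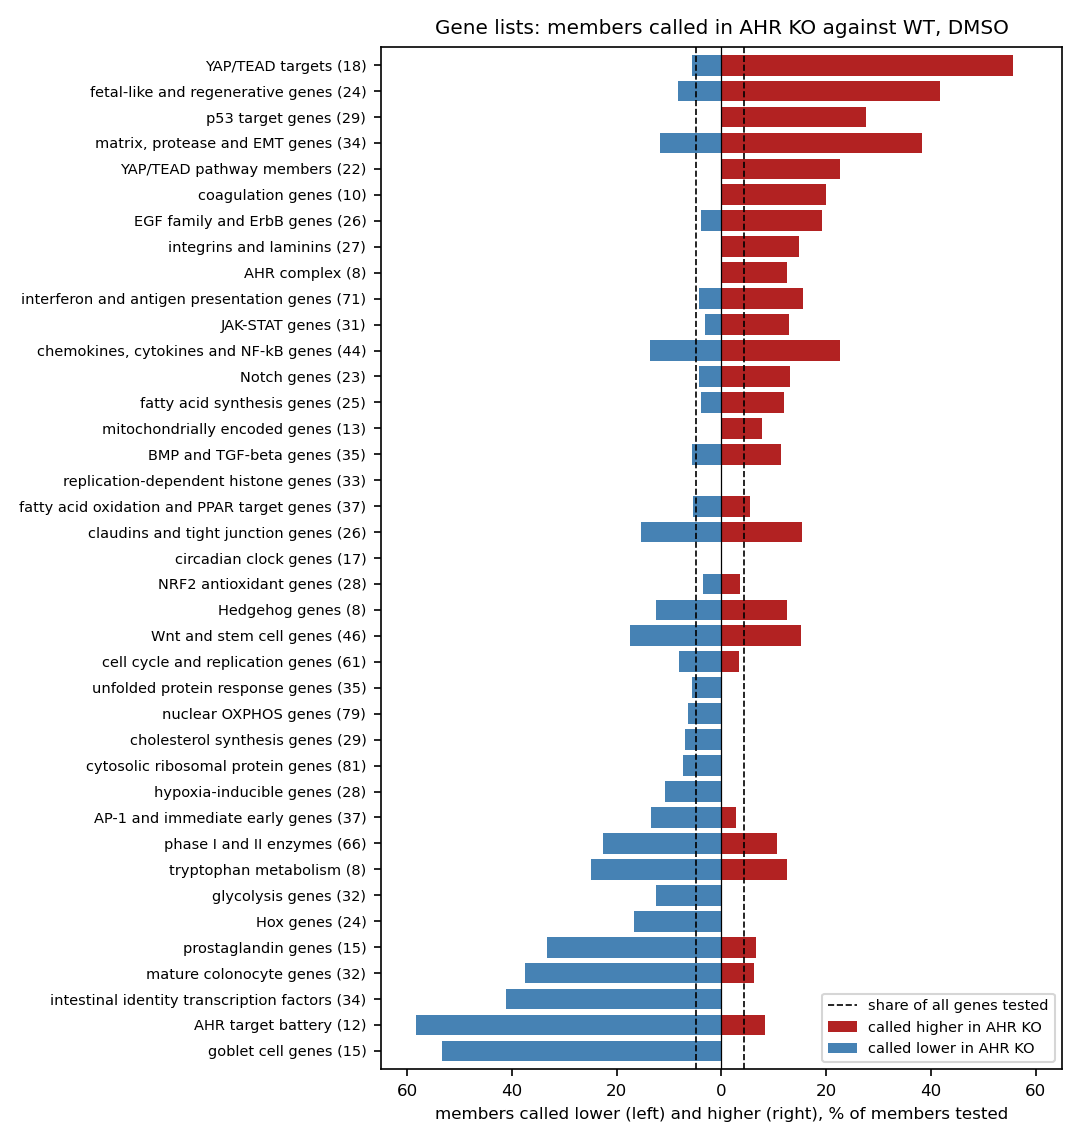
Share of the tested members of each gene list that limma called lower (bars to the left, blue) or higher (bars to the right, red) in AHR KO than in WT organoids under DMSO, for lists with at least 8 members tested (number in brackets). Dashed lines mark the shares over all genes, 4.83% lower and 4.21% higher; YAP/TEAD targets reach 55.6% higher, and the AHR target battery reaches 58.3% lower, with Ahrr, at or near 0 in all 4 libraries, among its 7 genes.

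The chart of called shares by list orders the groups described below. At its lower end stand the AHR target battery (58.3% of tested members lower), goblet cell genes (53.3%), intestinal identity transcription factors (41.2%) and mature colonocyte genes (37.5%). At its upper end stand YAP/TEAD targets (55.6% higher), fetal-like and regenerative genes (41.7%) and the matrix, protease and EMT genes, at 38.2%.

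Of the 12 AHR target battery genes that could be tested, 7 fell and 1 rose, with a median log2 difference of -0.40 against -0.011 over all genes. Ahrr, which is among the 7, and Cyp1a1 passed the filter only through the FICZ libraries. Of the 10 members whose 4 DMSO values averaged at least 10, a count added after the data were seen, 6 fell and 1 rose (median -0.39). The members that fell were 4 without AHR KO replicate 1 or 3 or WT replicate 2, and 5 without WT replicate 3. Cyp1a2 and Ugt1a6b, the other two of the 14 listed, were at 0 in these 4 libraries. The promoters of Cyp1b1, Ahrr and Tiparp are shown because they belong to battery genes that fell and hold the AHR core. The sequences are the 250 bases before the RefSeq start (build GRCm38.p6), written 5′ to 3′ on the gene's strand, with GCGTG, or its reverse complement CACGC, in capitals. Cyp1b1 lies at chr17:79715062-79715311 (minus strand), Ahrr at chr13:74292332-74292581 (minus strand) and Tiparp at chr3:65528197-65528446 (plus strand).
Cyp1b1: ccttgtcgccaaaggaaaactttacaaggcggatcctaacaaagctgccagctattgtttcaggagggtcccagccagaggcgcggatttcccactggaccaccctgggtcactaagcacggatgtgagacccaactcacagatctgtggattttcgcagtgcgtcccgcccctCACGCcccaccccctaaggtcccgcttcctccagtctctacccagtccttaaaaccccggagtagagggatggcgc
Ahrr: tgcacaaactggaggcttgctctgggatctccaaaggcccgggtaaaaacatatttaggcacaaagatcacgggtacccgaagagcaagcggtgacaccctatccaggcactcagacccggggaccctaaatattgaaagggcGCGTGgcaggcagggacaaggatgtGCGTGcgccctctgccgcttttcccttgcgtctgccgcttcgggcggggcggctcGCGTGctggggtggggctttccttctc
Tiparp: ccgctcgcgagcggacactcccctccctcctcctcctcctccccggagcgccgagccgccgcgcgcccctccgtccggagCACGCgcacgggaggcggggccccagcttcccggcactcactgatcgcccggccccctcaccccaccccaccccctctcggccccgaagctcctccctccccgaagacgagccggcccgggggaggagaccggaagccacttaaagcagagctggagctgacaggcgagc
In Cyp1b1 the core began 76 bases before the start, in Tiparp 170 bases, and Ahrr held 3 cores between 107 and 27 bases before it. The letters were found on either strand in 3 of the 7 called battery genes with a window in the table. These 3 include Ahrr, which was at or near 0 in all 4 DMSO libraries. The letters were not in the windows of Ugt1a6a, Ugt1a7c, Nqo1 and Nfe2l2. Aldh3a1 had no entry. As a measure of how common these letters are, they stood in 28.2% of all 32851 windows and in 51.0% of the 9606 tested genes with a window, and in 49.7% of the genes that rose, 46.5% of those that fell and 51.3% of those not called.

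Cyp1b1 (ENSMUSG00000024087, chromosome 17, 79701537 to 79715061), a monooxygenase of polycyclic aromatic compounds and steroids, had 1632 and 1078 normalised counts in WT and 34.5 and 25.4 in AHR KO, 45.2-fold lower (log2 difference -5.44 ± 0.24 SE, adjusted p = 7.77e-06, limma). The phase II enzyme Ugt1a7c (ENSMUSG00000090124, chromosome 1, 88095062 to 88220002) had 4463 and 4396 in WT and 979 and 794 in AHR KO (log2 difference -2.33 ± 0.13 SE, adjusted p = 2.38e-05). Both AHR KO libraries lay far below both WT libraries in these genes. Ugt1a6a (ENSMUSG00000054545, chromosome 1, 88134809 to 88218997) stood at 476 and 378 in WT and 66.8 and 81.6 in AHR KO (log2 difference -2.51 ± 0.20 SE, adjusted p = 9.23e-05), without overlap. The Ugt1a genes share their last exons, so their counts may be split between them. Nqo1 (ENSMUSG00000003849, chromosome 8, 107388225 to 107403206), which reduces quinones, had 581 and 595 in WT and 267 and 242 in AHR KO (log2 difference -1.21 ± 0.082 SE, adjusted p = 5.17e-05), so that it was 2.31-fold lower and the WT libraries were closer to each other than to any AHR KO library.

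Of the other battery genes that fell, Tiparp and Nfe2l2 did so by less. Tiparp, an ADP-ribosyltransferase that restrains AHR, had 1485 and 1420.2 in WT and 1164 and 1064 in AHR KO (log2 difference -0.38 ± 0.091 SE, adjusted p = 0.0278). Nfe2l2, which encodes the antioxidant factor NRF2, had 9856 and 9099 against 8159 and 7856 (log2 difference -0.24 ± 0.055 SE, adjusted p = 0.022). The repressor Ahrr was close to 0 in all 4 libraries, with 1.49 and 1.51 in WT and 0 in both AHR KO libraries (log2 difference -1.32 ± 0.33 SE, adjusted p = 0.0336). Both groups lie under the level of 3 counts at which a fold can be read, so the size of its log2 difference depends on the pseudocount. These calls were lost without AHR KO replicate 1 or 3 or WT replicate 2 or 3 (adjusted p = 0.071 to 0.203) for Tiparp, without AHR KO replicate 1 or 3 or WT replicate 2 (adjusted p = 0.0801 to 0.183) for Nfe2l2 and without AHR KO replicate 1 or 3 or WT replicate 2 or 3 (adjusted p = 0.0936 to 0.109) for Ahrr. They were also lost with quantile normalization (adjusted p = 0.0505 for Tiparp, 0.0576 for Nfe2l2 and 0.441 for Ahrr), and for Tiparp (0.0506) and Ahrr (0.107) with no filter on low values. Aldh3a1, an aldehyde dehydrogenase, went the other way with 25.1 and 14.0 in WT and 58.0 and 67.7 in AHR KO (log2 difference 1.68 ± 0.36 SE, adjusted p = 0.017), a call lost without AHR KO replicate 1 or 3 or WT replicate 3 (adjusted p = 0.0747 to 0.126). Cyp1a1, the classical AHR target, was at or near 0 in all 4 libraries (5.84 and 0 in WT, 0 and 2.93 in AHR KO), and Cyp2s1, Gsta1 and Gsta2 were not called.

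**Figure D2:**
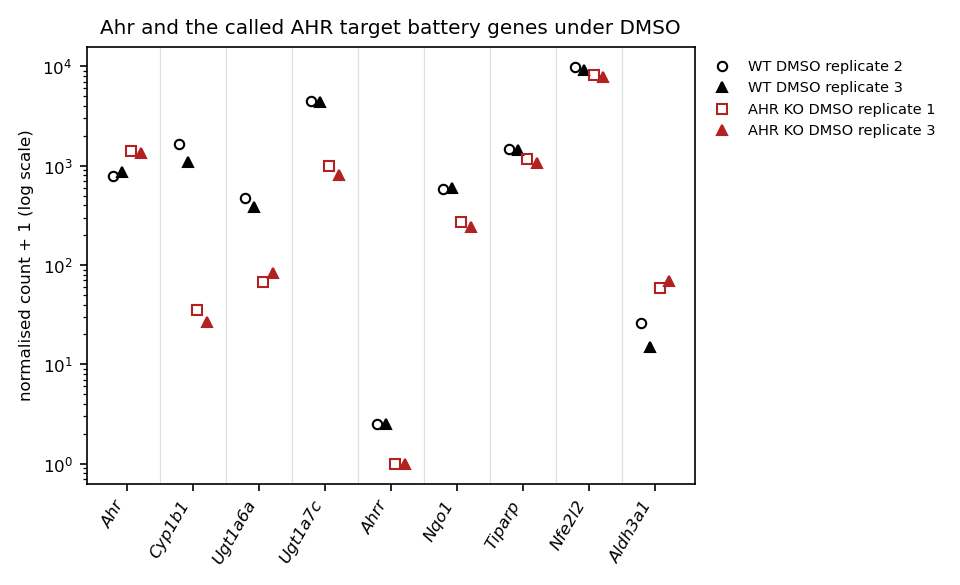
Normalised count + 1 (log axis) of Ahr and of the 8 called AHR target battery genes in each DMSO library, WT in black and AHR KO in red, each point 1 library. The red points of Cyp1b1, Ugt1a6a, Ugt1a7c and Nqo1 lie below both black points, while those of Ahr and Aldh3a1 lie above them.

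Ahr itself (ENSMUSG00000019256, chromosome 12, 35497974 to 35535038) was higher in the libraries labelled AHR KO, with 786 and 858 in WT and 1404 and 1346 in AHR KO (log2 difference 0.74 ± 0.068 SE, adjusted p = 0.000194). The table gives 1 value per gene and does not resolve exons, so the counts do not show the deletion, and AHR KO and WT stand for the libraries so labelled. The other 7 genes of the AHR complex were not called; the partner Arnt had 1674 and 1719.6 in WT and 1752 and 1695 in AHR KO (adjusted p = 0.872). As the plot of the battery by library shows, the order of the genotypes in Cyp1b1, Ugt1a6a, Ugt1a7c and Nqo1 was the reverse of that in Ahr. In Aldh3a1 it was the same as in Ahr.

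Beyond the battery, 15 of 66 tested phase I and II enzymes and transporters of foreign compounds fell and 7 rose (median -0.11). These were 22.7% and 10.6%, against 4.83% and 4.21% of all genes. With 1 library left out, 10 and 7 fell without AHR KO replicates 1 and 3 and 10 and 13 without WT replicates 2 and 3, while 4 rose without either AHR KO library and 5 without either WT library. Adh1, an alcohol dehydrogenase, had 78.0 and 94.9 in WT and 15.4 and 12.8 in AHR KO (log2 difference -2.53 ± 0.28 SE, adjusted p = 0.000627). The efflux pump gene Abcb1a had 2580.1 and 2711 against 1467 and 1528 (log2 difference -0.82 ± 0.075 SE, adjusted p = 0.000193). The mitochondrial aldehyde dehydrogenase Aldh1b1 had 644 and 623 against 325 and 326 (log2 difference -0.96 ± 0.13 SE, adjusted p = 0.00189). Both AHR KO libraries were below both WT libraries in all 3 genes. Ugt1a1, which conjugates bilirubin, had 198 and 216 in WT and 60.9 and 40.0 in AHR KO (log2 difference -2.04 ± 0.34 SE, adjusted p = 0.00482), a call lost without AHR KO replicate 3 (adjusted p = 0.059). Among the enzymes that rose, microsomal glutathione transferase Mgst1 had 771 and 769 in WT and 1693 and 1645 in AHR KO (log2 difference 1.11 ± 0.11 SE, adjusted p = 0.000311). Epoxide hydrolase Ephx1 had 2597 and 2220.3 against 4271 and 4353 (log2 difference 0.84 ± 0.079 SE, adjusted p = 0.000231). Here the AHR KO libraries were the higher ones, so members of the list moved in both directions.

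Of 28 NRF2 antioxidant genes 1 rose and 1 fell (3.57% each, median -0.02), close to the 4.21% and 4.83% over all genes. None rose with any 1 of the DMSO libraries left out, and 1 fell without WT replicate 3 and none with another DMSO library left out. Other alternatives called 1 to 3 higher and 1 to 3 lower. Of 8 tested genes of tryptophan metabolism 2 fell and 1 rose (25% and 12.5%, against 4.83% and 4.21% of all genes), but 1 fell and none rose with any 1 of the DMSO libraries left out. Maoa, the monoamine oxidase that degrades serotonin, fell from 5287 and 5398 in WT to 3067 and 3107 in AHR KO (log2 difference -0.79 ± 0.058 SE, adjusted p = 6.41e-05). Of 15 prostaglandin genes 5 fell and 1 rose (median -0.18), with 3 lower without WT replicate 3 and 2 with each of the other DMSO libraries left out. The phospholipase Pla2g4a, which frees arachidonic acid from membranes, had 1520.0 and 1300.3 in WT and 864 and 871 in AHR KO (log2 difference -0.70 ± 0.090 SE, adjusted p = 0.00136). The carbonyl reductase Cbr2 had 228 and 195 against 72.9 and 48.2 (log2 difference -1.81 ± 0.23 SE, adjusted p = 0.00135). The exporter Abcc4 was the member that rose (log2 difference 0.37 ± 0.061 SE, adjusted p = 0.00457). The groups did not overlap in any of these. Of the prostaglandin list 33.3% fell and 6.67% rose, against 4.83% and 4.21% of all genes. Ptgs1, the constitutive cyclooxygenase, which stands in the tuft cell list, rose 8.44-fold from 24.3 and 33.2 in WT to 236 and 250.1 in AHR KO (log2 difference 3.05 ± 0.22 SE, adjusted p = 5.99e-05).

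YAP and TAZ are transcriptional coactivators that enter the nucleus when the Hippo kinases are quiet, bind TEAD factors at the core GGAATG and drive genes of growth and matrix, a program known from intestinal repair. Of 18 tested YAP/TEAD targets 10 rose and 1 fell, with a median log2 difference of 0.47 against -0.011 over all genes. One of the 18 averaged under 10 in the 4 DMSO libraries and passed the filter only through the FICZ libraries. Among the other 17, 10 rose and 1 fell (median 0.47). The number that rose was 4 and 6 without AHR KO replicates 1 and 3 and 6 and 7 without WT replicates 2 and 3. The promoters of Ankrd1, Ccn1 and Amotl2, targets that rose, are printed as above, with GGAATG, or its reverse complement CATTCC, in capitals, because they hold the TEAD core. The windows are chr19:36119845-36120094 (minus strand) for Ankrd1, chr3:145649986-145650235 (minus strand) for Ccn1 and chr9:102717554-102717803 (plus strand) for Amotl2.
Ankrd1: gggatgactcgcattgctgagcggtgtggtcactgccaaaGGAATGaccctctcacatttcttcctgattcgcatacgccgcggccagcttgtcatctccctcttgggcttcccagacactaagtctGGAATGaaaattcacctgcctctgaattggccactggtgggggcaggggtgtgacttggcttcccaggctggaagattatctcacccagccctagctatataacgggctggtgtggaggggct
Ccn1: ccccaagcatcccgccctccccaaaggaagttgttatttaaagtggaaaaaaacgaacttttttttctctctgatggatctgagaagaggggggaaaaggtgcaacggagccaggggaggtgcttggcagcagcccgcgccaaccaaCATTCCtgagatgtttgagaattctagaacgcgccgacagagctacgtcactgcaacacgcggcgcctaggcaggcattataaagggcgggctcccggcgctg
Amotl2: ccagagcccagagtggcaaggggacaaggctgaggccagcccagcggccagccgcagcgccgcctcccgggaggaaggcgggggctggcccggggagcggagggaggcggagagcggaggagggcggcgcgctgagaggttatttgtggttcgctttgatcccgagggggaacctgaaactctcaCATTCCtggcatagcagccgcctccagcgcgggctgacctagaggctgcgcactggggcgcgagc
The core began 103 bases before the start in Ccn1 and 65 bases before it in Amotl2, and Ankrd1 held it 210 and 123 bases before. It was found in 5 of the 9 called targets with a window (Crim1 and Ptpn14 besides these) and not in the windows of F3, Lats2, Myof and Igfbp3; Ccn2 and Ccdc80 had no entry. The letters stood in 12.6% of all windows and 12.7% of the tested genes with one, and in 18.9% of the genes that rose, 14.5% of those that fell and 12.3% of those not called.

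Ccn2 (ENSMUSG00000019997, chromosome 10, 24595442 to 24598683), a secreted matricellular protein and standard readout of YAP, had 2467 and 2370.1 normalised counts in WT and 5616 and 5338 in AHR KO, 2.26-fold higher (log2 difference 1.18 ± 0.087 SE, adjusted p = 6.66e-05). Its relative Ccn1 (ENSMUSG00000028195, chromosome 3, 145646976 to 145649981) had 999.8 and 892 in WT and 1476 and 1384 in AHR KO (log2 difference 0.60 ± 0.094 SE, adjusted p = 0.00352). In both genes the 2 libraries of a genotype were close to each other and apart from the other genotype. Amotl2, an angiomotin of cell junctions, rose from 629.8 and 723 to 1544 and 1369 (log2 difference 1.11 ± 0.17 SE, adjusted p = 0.00293), and Myof, a membrane repair protein, from 11224 and 10001 to 14922 and 14429 (log2 difference 0.47 ± 0.072 SE, adjusted p = 0.00305). Ankrd1 (ENSMUSG00000024803, chromosome 19, 36111961 to 36120099), a muscle ankyrin repeat protein that reports YAP activity, had 36.0 and 16.0 in WT and 187 and 155 in AHR KO (log2 difference 2.77 ± 0.47 SE, adjusted p = 0.00534); WT replicate 2 was well above WT replicate 3, and the call was lost without AHR KO replicate 1 (adjusted p = 0.0565). Igfbp3, which binds insulin-like growth factors, had 8.66 and 10.2 against 56.2 and 46.3 (log2 difference 2.32 ± 0.44 SE, adjusted p = 0.00972), a call lost without AHR KO replicate 1 or 3 or WT replicate 2 (adjusted p = 0.0616 to 0.0833). The member that fell was tissue factor, F3 (log2 difference -0.52 ± 0.13 SE, adjusted p = 0.0366), a call lost without AHR KO replicate 1 or 3 or WT replicate 2 (adjusted p = 0.119 to 0.228) and also with no filter on low values (0.0663).

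Of 22 members of the YAP/TEAD pathway 5 rose (22.7%, against 4.21% of all genes), with a median of 0.04. None was called lower by limma, against 2 at an unadjusted p below 0.05. With 1 library left out, 3 and 2 rose without AHR KO replicates 1 and 3 and 3 and 2 without WT replicates 2 and 3. Wwtr1, which encodes TAZ, had 841 and 794 in WT and 1359 and 1355 in AHR KO (log2 difference 0.73 ± 0.066 SE, adjusted p = 0.000182). Amotl1 had 612 and 443 against 1024 and 1164 (log2 difference 1.07 ± 0.16 SE, adjusted p = 0.00291). The AHR KO libraries were higher in both. Ajuba, a LIM protein that restrains LATS kinases, had 1433 and 1301 against 1758 and 1932 (log2 difference 0.43 ± 0.092 SE, adjusted p = 0.0167), and Tead4 878 and 875 against 1109 and 1036 (log2 difference 0.29 ± 0.066 SE, adjusted p = 0.023), calls that were lost without AHR KO replicate 3 or WT replicate 3 (adjusted p = 0.117 to 0.147) for Ajuba and without AHR KO replicate 1 or 3 or WT replicate 2 or 3 (adjusted p = 0.0685 to 0.163) for Tead4.

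**Figure D3:**
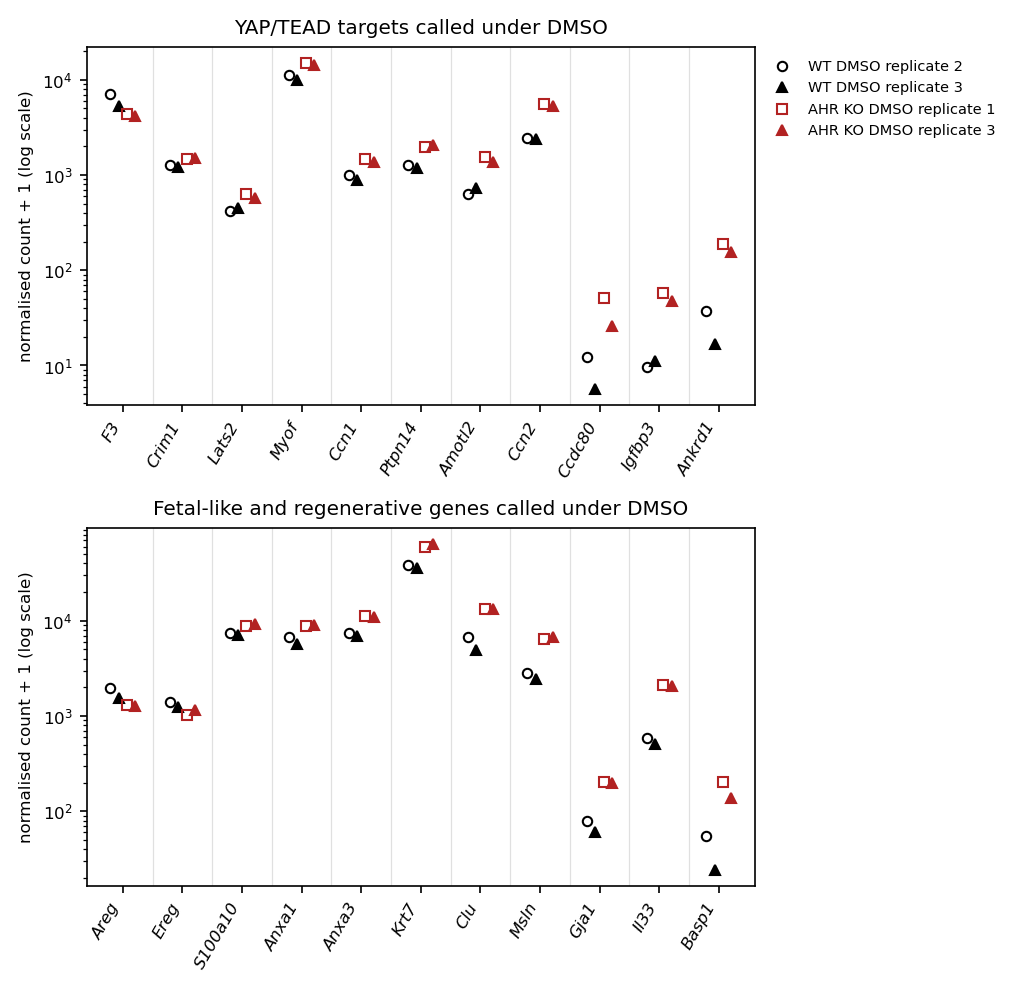
Normalised count + 1 (log axis) of the called YAP/TEAD targets (top) and the called fetal-like and regenerative genes (bottom) in each DMSO library, WT in black and AHR KO in red, each point 1 library. The red points lie above the black ones in 10 of 11 targets and in 9 of the 11 fetal-like genes plotted; F3, Areg and Ereg show the reverse.

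The fetal-like and regenerative list holds genes of fetal intestinal spheroids and of epithelium that repairs injury. Of its 24 tested members 10 rose and 2 fell, with a median of 0.25, and 20 of the 24 had a positive difference. The number that rose was 6 and 7 without AHR KO replicates 1 and 3 and 9 and 7 without WT replicates 2 and 3. Il33 (ENSMUSG00000024810, chromosome 19, 29925114 to 29960718), an alarmin released by damaged epithelium, had 584 and 512 normalised counts in WT and 2098 and 2052 in AHR KO, 3.79-fold higher (log2 difference 1.92 ± 0.15 SE, adjusted p = 7.74e-05). Clu (ENSMUSG00000022037, chromosome 14, 65968483 to 65981547), the secreted chaperone that marks revival stem cells, had 6675 and 4943 in WT and 13384 and 13294 in AHR KO (log2 difference 1.22 ± 0.16 SE, adjusted p = 0.00146). Msln, the surface glycoprotein mesothelin, had 2808 and 2461 against 6419.9 and 6824 (log2 difference 1.33 ± 0.11 SE, adjusted p = 0.00013). The lowest AHR KO library stood well above the highest WT library in all 3 genes.

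The connexin Gja1 had 78.9 and 60.3 in WT and 204 and 197 in AHR KO (log2 difference 1.53 ± 0.21 SE, adjusted p = 0.0019). The keratin Krt7, one of the more abundant members, had 38868 and 36209.9 against 59467 and 63916 (log2 difference 0.72 ± 0.083 SE, adjusted p = 0.000754). The annexin Anxa3 had 7498 and 6874 against 11308 and 10971 (log2 difference 0.63 ± 0.094 SE, adjusted p = 0.00258). All rose without overlap of the groups. Basp1 had 54.5 and 23.5 against 203 and 136 (log2 difference 2.18 ± 0.39 SE, adjusted p = 0.00702), a call lost without AHR KO replicate 1 (adjusted p = 0.0737). Ly6a, which encodes the fetal marker Sca-1, had 31717 and 32567 in WT and 35342 and 35067 in AHR KO and was not called (adjusted p = 0.293). The members that fell were the EGF receptor ligands Areg (log2 difference -0.43 ± 0.11 SE, adjusted p = 0.0327) and Ereg (log2 difference -0.29 ± 0.076 SE, adjusted p = 0.0399), calls lost without AHR KO replicate 1 or 3 or WT replicate 2 (adjusted p = 0.122 to 0.211) for Areg and without AHR KO replicate 1 or 3 or WT replicate 2 (adjusted p = 0.0708 to 0.261) for Ereg. Both were also lost with no filter on low values (0.0576 for Areg, 0.0679 for Ereg), and Ereg with upper-quartile scaling (0.0648) and quantile normalization (0.0665).

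Of 34 tested matrix, protease and EMT genes 13 rose and 4 fell (median 0.39), and 11 to 15 rose without 1 of the 4 DMSO libraries. Those that fell were 1 without either AHR KO library, 2 without WT replicate 2 and 4 without WT replicate 3. Mmp7, the matrix protease matrilysin, had 402 and 302 in WT and 1578 and 1337 in AHR KO, 4.14-fold higher (log2 difference 2.06 ± 0.15 SE, adjusted p = 6.77e-05). Plat, the tissue plasminogen activator, had 237 and 216 against 799 and 812 (log2 difference 1.83 ± 0.15 SE, adjusted p = 9.23e-05). Both proteases were higher in each AHR KO library than in either WT library. The metalloprotease inhibitors Timp2, with 921 and 658 in WT and 2033 and 2166 in AHR KO (log2 difference 1.43 ± 0.16 SE, adjusted p = 0.000672), and Timp3, with 24.4 and 7.88 against 116 and 139 (log2 difference 3.09 ± 0.49 SE, adjusted p = 0.00375), rose as well. Nid1, a linker of basement membranes, had 285 and 253 against 685 and 726 (log2 difference 1.39 ± 0.15 SE, adjusted p = 0.000447). Loxl4, which crosslinks collagen, had 693 and 567 against 1245 and 1393 (log2 difference 1.07 ± 0.12 SE, adjusted p = 0.000654). The groups were apart in these 4 genes, and WT replicate 2 held more Timp3 and Timp2 than WT replicate 3. Tropomyosin Tpm2 fell from 1020.2 and 1002 to 516 and 451 (log2 difference -1.07 ± 0.087 SE, adjusted p = 9.23e-05). Of the 9 fibroblast marker genes 2 could be tested, and both went the other way: Fbln1, the glycoprotein fibulin-1, fell from 908 and 919 in WT to 475 and 389 in AHR KO (log2 difference -1.08 ± 0.16 SE, adjusted p = 0.00234), and Pdgfrb from 83.7 and 55.7 to 15.3 and 31.3 (log2 difference -1.60 ± 0.33 SE, adjusted p = 0.0155), the latter a call lost without AHR KO replicate 1 or WT replicate 2 (adjusted p = 0.0976 to 0.123). The part of fibroblast RNA in the matrix genes was not tested, and the collagen genes that define those cells were at 2.6 or less.

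Of 27 tested integrins and laminins 4 rose (14.8%, against 4.21% of all genes), with a median of 0.12. None was called lower by limma, against 3 at an unadjusted p below 0.05. There 2 and 1 rose without AHR KO replicates 1 and 3 and 6 and 3 without WT replicates 2 and 3. Bcam, a receptor for laminin 511, had 356 and 329 in WT and 1024 and 1233 in AHR KO (log2 difference 1.71 ± 0.13 SE, adjusted p = 6.77e-05). Lama5, the alpha chain of that laminin, had 2206 and 1669 against 3045 and 3092 (log2 difference 0.68 ± 0.13 SE, adjusted p = 0.0123), a call lost without AHR KO replicate 1 or 3 or WT replicate 3 (adjusted p = 0.0732 to 0.0913). Of 10 coagulation genes 2 rose, and 1 without AHR KO replicate 1 or WT replicate 2. The thrombin receptor F2r had 38.9 and 39.6 in WT and 179.7 and 188 in AHR KO, 4.69-fold higher (log2 difference 2.20 ± 0.23 SE, adjusted p = 0.000418). The tissue factor inhibitor Tfpi had 8.47 and 11.96 against 47.0 and 33.1 (log2 difference 1.87 ± 0.36 SE, adjusted p = 0.0111), a call lost without AHR KO replicate 1 or WT replicate 2 (adjusted p = 0.0777 to 0.103). In F2r the replicates of each genotype were nearly equal. The 2 coagulation genes that rose were 20% of those tested, against 4.21% of all genes.

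Intestinal identity is set by a network of transcription factors, among them the caudal factors CDX1 and CDX2, HNF4A and several nuclear receptors. Of the 34 tested genes of this list 14 fell and none was called higher by limma, with 0 higher at an unadjusted p below 0.05 and a median log2 difference of -0.33. The number that fell was 4 and 4 without AHR KO replicates 1 and 3 and 5 and 10 without WT replicates 2 and 3. Vdr (ENSMUSG00000022479, chromosome 15, 97854425 to 97910630), the vitamin D receptor, had 813 and 795 in WT and 269 and 261 in AHR KO, 3.03-fold lower (log2 difference -1.59 ± 0.16 SE, adjusted p = 0.000273). Cdx1 (ENSMUSG00000024619, chromosome 18, 61018862 to 61036199) had 3092 and 2808 against 1325 and 1336 (log2 difference -1.15 ± 0.10 SE, adjusted p = 0.000191). The AHR KO libraries lay below both WT libraries in Vdr and Cdx1, with little spread within a genotype.

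Nr1i2, which encodes the xenobiotic receptor PXR, had 106 and 109 in WT and 31.2 and 43.9 in AHR KO (log2 difference -1.51 ± 0.23 SE, adjusted p = 0.00264). Nr1h4, the bile acid receptor FXR, had 416 and 502 against 207 and 212 (log2 difference -1.12 ± 0.20 SE, adjusted p = 0.00754). Hnf4a had 12519 and 11829 against 8594 and 8594 (log2 difference -0.50 ± 0.091 SE, adjusted p = 0.00759), and the groups were again apart in these genes. Cdx2 had 4099.6 and 3644 in WT and 2788 and 2958 in AHR KO (log2 difference -0.43 ± 0.094 SE, adjusted p = 0.0191). The calls were lost without AHR KO replicate 1 or 3 or WT replicate 3 (adjusted p = 0.059 to 0.0634) for Nr1h4, without AHR KO replicate 1 or 3 or WT replicate 2 (adjusted p = 0.059 to 0.0639) for Hnf4a and without AHR KO replicate 1 or 3 or WT replicate 2 (adjusted p = 0.0818 to 0.145) for Cdx2. Rxra, the shared partner of these nuclear receptors, had 721 and 703 against 661 and 701 and was not called (adjusted p = 0.702). Of 9 general epithelial genes 3 fell and 6 (Vil1, Cldn7, Cdh1, Krt19, Krt8 and Krt18) were not called, with log2 differences of -0.20 for Vil1 to 0.16 for Krt18. Those that fell were Epcam (log2 difference -0.43 ± 0.079 SE, adjusted p = 0.00846), Elf3 (log2 difference -0.40 ± 0.080 SE, adjusted p = 0.0133) and Lgals4 (log2 difference -0.34 ± 0.079 SE, adjusted p = 0.0266). Their calls were lost without AHR KO replicate 3 or WT replicate 2 (adjusted p = 0.0807 to 0.0857) for Epcam, without AHR KO replicate 1 or 3 or WT replicate 2 (adjusted p = 0.0504 to 0.125) for Elf3 and without AHR KO replicate 1 or 3 or WT replicate 2 or 3 (adjusted p = 0.106 to 0.151) for Lgals4, the last also with no filter (0.0567).

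Of 24 tested Hox genes 4 fell (median -0.01), with 1 lower without AHR KO replicate 1 and 2 with each of the other DMSO libraries left out. Hoxd4 averaged under 10 in the 4 DMSO libraries and passed the filter only through the FICZ libraries. Among the other 23 genes 4 fell (median 0.02). The share of all 24 Hox genes that fell was 16.7%, against 4.83% of all genes. Hoxb13, a gene of the hindgut, had 159.7 and 231 in WT and 57.7 and 75.0 in AHR KO (log2 difference -1.53 ± 0.22 SE, adjusted p = 0.00203). Hoxd13 had 302 and 409 against 34.5 and 99.4 (log2 difference -2.56 ± 0.48 SE, adjusted p = 0.0091), with AHR KO replicate 1 well below replicate 3; the call was lost without AHR KO replicate 1 or WT replicate 3 (adjusted p = 0.0653 to 0.0681). Of 8 Hedgehog genes 1 fell and 1 rose (12.5% each, against 4.83% and 4.21% of all genes). None rose with any 1 of the DMSO libraries left out, and 2 fell without AHR KO replicate 1. Ihh, the epithelial Hedgehog ligand that signals to the stroma, had 40.5 and 47.6 in WT and 4.29 and 6.97 in AHR KO, 7.83-fold lower (log2 difference -2.79 ± 0.36 SE, adjusted p = 0.00136). The AHR KO libraries held only a few normalised counts of Ihh.

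**Figure D4:**
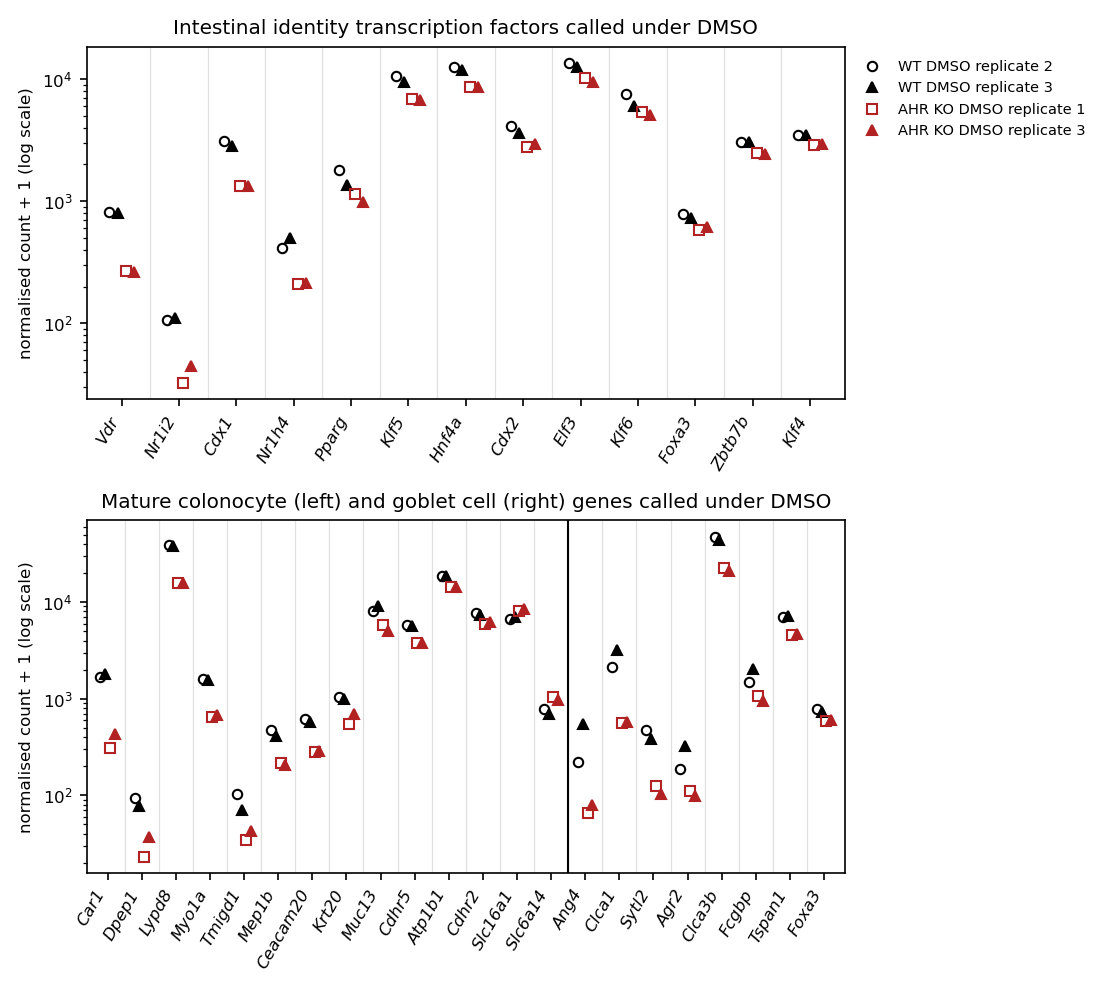
Normalised count + 1 (log axis) of the called intestinal identity transcription factors (top) and of the called mature colonocyte and goblet cell genes (bottom, divided by a line) in each DMSO library, WT in black and AHR KO in red, each point 1 library. The red points lie below the black ones in all 13 transcription factors plotted, 12 of 14 colonocyte genes and all 8 goblet cell genes.

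Mature colonocyte genes are the transporters, brush border proteins and enzymes of the cells that line the gut surface. Of 32 tested members 12 fell and 2 rose, with a median of -0.64, and 1 rose without WT replicate 2 and none with another DMSO library left out. One of the 32 averaged under 10 in the 4 DMSO libraries and passed the filter only through the FICZ libraries. Among the other 31, 12 fell and 2 rose (median -0.6). The number that fell was 4 and 3 without AHR KO replicates 1 and 3 and 4 and 5 without WT replicates 2 and 3. Other alternatives called 7 to 19 lower. Car1 (ENSMUSG00000027556, chromosome 3, 14766216 to 14808368), a carbonic anhydrase of surface colonocytes, had 1673 and 1815 in WT and 309 and 432 in AHR KO, 4.71-fold lower (log2 difference -2.25 ± 0.21 SE, adjusted p = 0.000231). Lypd8 (ENSMUSG00000013643, chromosome 11, 58379043 to 58390728), a secreted protein that keeps flagellated bacteria off the epithelium, had 39121 and 37599 against 15573 and 15898 (log2 difference -1.28 ± 0.17 SE, adjusted p = 0.00135). Myo1a, a motor of the brush border, had 1598 and 1579 against 649.7 and 676 (log2 difference -1.26 ± 0.16 SE, adjusted p = 0.00111). Both AHR KO libraries held less than the lower WT library in all 3 genes. The brush border protocadherin Cdhr5 had 5797 and 5609.9 against 3743 and 3765 (log2 difference -0.60 ± 0.11 SE, adjusted p = 0.00777), a call lost without AHR KO replicate 1 or 3 or WT replicate 2 (adjusted p = 0.0569 to 0.0629). The chloride exchanger Slc26a3 was low in every library, with 24.1 and 16.4 in WT and 15.2 and 8.78 in AHR KO, and was not called (adjusted p = 0.308), and Car4 did not pass the filter at 7.25 and 5.34 against 2.27 and 3.05.

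All 15 tested goblet cell genes had a negative difference, and 8 of them fell (median -1.08). The number that fell was 4 and 5 without AHR KO replicates 1 and 3 and 7 and 6 without WT replicates 2 and 3. Clca1 (ENSMUSG00000028255, chromosome 3, 145003817 to 145032776), a protease of mucus, had 2125 and 3215 in WT and 559 and 572 in AHR KO (log2 difference -2.21 ± 0.22 SE, adjusted p = 0.000299). Its paralog Clca3b was abundant, with 47664 and 44249 against 22354 and 21051 (log2 difference -1.08 ± 0.078 SE, adjusted p = 5.99e-05). Sytl2, which helps secretory granules dock, had 472 and 384 against 123 and 102 (log2 difference -1.91 ± 0.17 SE, adjusted p = 0.000144). The genotypes were apart in each, and in Clca1 WT replicate 3 was the higher WT library. Tetraspanin Tspan1 had 7072 and 7129 in WT and 4509.8 and 4630.0 in AHR KO (log2 difference -0.64 ± 0.10 SE, adjusted p = 0.00385). The antimicrobial Ang4 had 218 and 548 against 64.1 and 77.7 (log2 difference -2.28 ± 0.41 SE, adjusted p = 0.00706), a call lost without AHR KO replicate 1 (adjusted p = 0.0631). Muc2, the main mucin, had 125 and 294 in WT and 73.4 and 102 in AHR KO and was not called (adjusted p = 0.362), with WT replicate 3 well above the other 3 libraries.

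Few genes of other epithelial cell types passed the filter. Only 4 of 27 enteroendocrine genes passed the filter and 1 fell. With 1 of the DMSO libraries left out 0 or 1 fell, and under other alternatives 0 to 2. Chga had 12.7 and 10.3 in WT and 9.60 and 7.79 in AHR KO and was not called (adjusted p = 0.712). Of 21 tuft cell genes 5 were tested, of which 2 rose (1 without AHR KO replicate 1) and 1 fell. Among the 4 that averaged at least 10 in the DMSO libraries, 2 rose and 1 fell. Dclk1, a kinase that marks tuft cells, had 31.7 and 51.8 in WT and 5.27 and 3.27 in AHR KO (log2 difference -3.005 ± 0.58 SE, adjusted p = 0.0102), a call lost without AHR KO replicate 3 or WT replicate 3 (adjusted p = 0.0849 to 0.0891), so that it went the opposite way from Ptgs1. Of 14 gastric genes 2 were tested and 1 rose, the annexin Anxa8 (log2 difference 0.47 ± 0.10 SE, adjusted p = 0.0197), a call lost without AHR KO replicate 1 or 3 or WT replicate 3 (adjusted p = 0.0787 to 0.14). Of the Paneth cell markers other than Mmp7, Lyz1 and the listed defensins were at 0. Small intestine markers listed with them did not pass the filter. Lct had 2.99 and 20.86 in WT and 0.616 and 0.75 in AHR KO, and Gata4 1.88 and 10.02 against 0 and 0.

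The Wnt and stem cell genes moved in both directions: 7 of 46 tested rose and 8 fell (median 0.05). These were 15.2% and 17.4%, against 4.21% and 4.83% of all genes. With 1 library left out, 4 and 3 rose without AHR KO replicates 1 and 3 and 4 and 4 without WT replicates 2 and 3, and 3 fell without AHR KO replicate 1 and 2 with each of the others left out. Wnt10a, a secreted Wnt, had 42.8 and 21.7 in WT and 216 and 195 in AHR KO (log2 difference 2.71 ± 0.32 SE, adjusted p = 0.000783). Tnfrsf19, the Wnt target Troy, had 78.9 and 58.9 against 212 and 192 (log2 difference 1.55 ± 0.22 SE, adjusted p = 0.00219). Cyclin D1, Ccnd1, had 19710.2 and 18997 against 29419.8 and 29286 (log2 difference 0.60 ± 0.066 SE, adjusted p = 0.00056). The AHR KO libraries were the higher ones in these 3. The Wnt receptor Fzd1 had 1234 and 1270.2 against 894 and 854 (log2 difference -0.52 ± 0.076 SE, adjusted p = 0.00247). The water channel Aqp4 had 1483 and 1294 against 214 and 412 (log2 difference -2.22 ± 0.24 SE, adjusted p = 0.000529), with WT the higher genotype.

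Lgr5, Sox9, Ascl2, Axin2 and Myc were not called under DMSO. Lgr5, the R-spondin receptor of crypt base stem cells, had 1271 and 1200.0 in WT and 1561 and 1327 in AHR KO (log2 difference 0.22 ± 0.12 SE, adjusted p = 0.29). Sox9 had 3696 and 3551 against 3984 and 3877 (adjusted p = 0.533), and Ascl2 300.4 and 196 against 218 and 249.6 (adjusted p = 0.897). The genotypes of Lgr5 and Sox9 did not overlap, as for 58% of all genes, and those of Ascl2 did. Axin2 (3142 and 2854 in WT, 3123 and 3076 in AHR KO) and Myc (7417 and 7662, 7563 and 7119.7), direct Wnt targets, overlapped between the genotypes, with adjusted p = 0.689 and 0.785.

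Of 61 cell cycle and replication genes 2 rose and 5 fell (median -0.10), 11.5% against 9.05% of all genes, and 2 and 1 fell without AHR KO replicates 1 and 3 and 3 and 1 without WT replicates 2 and 3. Without AHR KO replicate 1 or WT replicate 2, 1 rose, and without AHR KO replicate 3 or WT replicate 3 none did. Other alternatives called 4 to 11 of these genes lower. At an unadjusted p below 0.05, 15 were lower and 2 higher, where 13.2% of all genes were lower and 10.6% higher. Orc1, a subunit of the origin recognition complex, had 636 and 680.3 in WT and 456 and 465 in AHR KO (log2 difference -0.51 ± 0.087 SE, adjusted p = 0.00528). The Ki-67 gene Mki67 had 17651 and 17428 against 16032 and 14869 and was not called (adjusted p = 0.377). The cyclin kinase inhibitor gene Cdkn2a had 239 and 234 against 394 and 493 (log2 difference 0.90 ± 0.17 SE, adjusted p = 0.00884), a call lost without AHR KO replicate 3 or WT replicate 3 (adjusted p = 0.053 to 0.0978). Of 29 p53 target genes 8 rose (27.6%, against 4.21% of all genes), with a median of 0.22. None was called lower by limma, against 1 at an unadjusted p below 0.05. The number that rose was 0 and 1 without AHR KO replicates 1 and 3 and 8 and 0 without WT replicates 2 and 3. Pmaip1, the apoptosis gene Noxa, had 576 and 487 against 777 and 765 (log2 difference 0.54 ± 0.097 SE, adjusted p = 0.00734), lost without AHR KO replicate 1 or 3 or WT replicate 3 (adjusted p = 0.059 to 0.0623), and Cdkn1a, which encodes p21, had 3979.7 and 3168 against 3201 and 3043 (adjusted p = 0.252). Of 37 genes of the AP-1 and immediate early list, which also holds the ETS family factor Ets1, 1 rose and 5 fell. These were 2.7% and 13.5%, against 4.21% and 4.83% of all genes. The number that fell was 1 and 0 without AHR KO replicates 1 and 3 and 0 and 2 without WT replicates 2 and 3. Jun had 1639.5 and 1452 in WT and 1100.3 and 1012 in AHR KO (log2 difference -0.55 ± 0.099 SE, adjusted p = 0.00754), a call lost without AHR KO replicate 3 or WT replicate 2 (adjusted p = 0.0682 to 0.0823). The member that rose was the transcription factor Ets1, from 518 and 374 to 957 and 964 (log2 difference 1.12 ± 0.20 SE, adjusted p = 0.00716), lost without AHR KO replicate 1 or 3 or WT replicate 3 (adjusted p = 0.0556 to 0.0616).

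Among the signalling lists, 4 of 35 BMP and TGF-beta genes rose and 2 fell, 3 of 23 Notch genes rose and 1 fell, 5 of 26 EGF family and ErbB genes rose and 1 fell, and 4 of 31 JAK-STAT genes rose and 1 fell. The shares that rose were 11.4%, 13%, 19.2% and 12.9%, against 4.21% of all genes, and those that fell 5.71%, 4.35%, 3.85% and 3.23%, against 4.83%. With any 1 of the 4 DMSO libraries left out, 2 JAK-STAT genes rose and no gene of the BMP, EGF or JAK-STAT lists fell. Of the Notch genes 1 fell without WT replicate 3 and none with another library left out. Tgfb3, a TGF-beta ligand, had 1.95 and 4.71 in WT and 48.9 and 49.8 in AHR KO (log2 difference 3.62 ± 0.51 SE, adjusted p = 0.00195). Ltbp3, which binds latent TGF-beta, had 317 and 336 against 678 and 742 (log2 difference 1.12 ± 0.084 SE, adjusted p = 6.77e-05). The receptor gene Tgfbr2 had 12357 and 11903 against 16483 and 16250.5 (log2 difference 0.43 ± 0.052 SE, adjusted p = 0.000941). These 3 genes were higher in both AHR KO libraries, in a medium that holds an ALK5 inhibitor. The list as a whole had a median of -0.01, with 17 of 35 differences positive. Tgfb3 lay under the level of 3 counts in WT replicate 2, so the size of its log2 difference depends on the pseudocount. The Notch ligand Jag2 (log2 difference 0.52 ± 0.075 SE, adjusted p = 0.0023) and the Notch modulator Dtx4 (log2 difference 0.81 ± 0.11 SE, adjusted p = 0.00177) rose, the latter from 576 and 488 to 928 and 932. Osmr, the oncostatin M receptor, had 119 and 88.9 in WT and 332 and 274 in AHR KO, 2.92-fold higher (log2 difference 1.54 ± 0.18 SE, adjusted p = 0.000676). In the EGF family list the number that rose was 0 and 1 without AHR KO replicates 1 and 3 and 1 and 0 without WT replicates 2 and 3. Epha4, an ephrin receptor, had 1786 and 1755 against 2327 and 2158 (log2 difference 0.34 ± 0.074 SE, adjusted p = 0.0183), lost without AHR KO replicate 1 or 3 or WT replicate 2 or 3 (adjusted p = 0.0595 to 0.138).

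Of 26 claudins and tight junction genes 4 rose and 4 fell (15.4% each, against 4.21% and 4.83% of all genes). In this list 1 and 3 rose without AHR KO replicates 1 and 3 and 2 and 3 without WT replicates 2 and 3, and 1 fell in each case but 2 without WT replicate 3. Cldn2, a claudin that forms a cation pore, had 191 and 236 in WT and 1360.4 and 1165 in AHR KO, 5.91-fold higher (log2 difference 2.56 ± 0.17 SE, adjusted p = 5.2e-05). Cldn15, the other pore-forming claudin of the gut, fell from 1236 and 1261 to 520.3 and 525 (log2 difference -1.25 ± 0.16 SE, adjusted p = 0.00111). The 2 claudins thus moved in opposite directions, each without overlap of the groups. The scaffold gene Tjp1 had 12942 and 13509 against 17153 and 15962 (log2 difference 0.32 ± 0.057 SE, adjusted p = 0.00696), a call lost without AHR KO replicate 1 or WT replicate 2 (adjusted p = 0.0682 to 0.0747).

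Of 44 chemokines, cytokines and NF-kB genes 10 rose (22.7%, against 4.21% of all genes) and 6 fell (13.6%, against 4.83%). The change was 2-fold or more in 13 of the 16. The median of the 44 genes was -0.11. Of these genes 7 rose without WT replicate 3 and 6 with each of the others left out, and 3 and 4 fell without AHR KO replicates 1 and 3 and 4 and 5 without WT replicates 2 and 3. The neutrophil chemokine Cxcl5 had 1836 and 1664 in WT and 3725 and 3334 in AHR KO (log2 difference 1.01 ± 0.086 SE, adjusted p = 0.00013). Lcn2, an iron-sequestering lipocalin, had 14.7 and 16.9 against 109 and 90.1 (log2 difference 2.58 ± 0.25 SE, adjusted p = 0.000271). Il34, a ligand of the CSF1 receptor, had 95.7 and 78.6 against 213 and 221 (log2 difference 1.31 ± 0.16 SE, adjusted p = 0.00101). These rose in both AHR KO libraries, as did the TNF-inducible Tnfaip2, with 3840.2 and 3560.1 in WT and 7938 and 8074 in AHR KO (log2 difference 1.11 ± 0.091 SE, adjusted p = 9.23e-05). Il18, a cytokine of the inflammasome, fell from 202 and 215 to 78.3 and 81.5 (log2 difference -1.37 ± 0.18 SE, adjusted p = 0.00137), and the mucosal chemokine Ccl28 from 262 and 223 to 70.6 and 83.0 (log2 difference -1.65 ± 0.22 SE, adjusted p = 0.00144).

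Of 71 interferon and antigen presentation genes 11 rose and 3 fell (median 0.04), with 2 lower without WT replicate 3 and 1 with each of the other DMSO libraries left out. The number that rose was 4 and 0 without AHR KO replicates 1 and 3 and 5 and 4 without WT replicates 2 and 3. Bst2, the antiviral tetherin, had 619.7 and 652 in WT and 891 and 1057 in AHR KO (log2 difference 0.61 ± 0.11 SE, adjusted p = 0.00779), a call lost without AHR KO replicate 3 or WT replicate 2 (adjusted p = 0.059 to 0.0886). Cd74, the invariant chain of MHC class II, had 6.62 and 2.89 against 33.5 and 44.3 (log2 difference 2.86 ± 0.46 SE, adjusted p = 0.00394), lost without AHR KO replicate 3 (adjusted p = 0.0555); the immune cell markers beside it summed to no more than 15.5 in any of the 4 libraries. Which cells the Cd74 RNA came from was not tested. Of the whole list 15.5% rose and 4.23% fell, against 4.21% and 4.83% of all genes. Irf8, an interferon regulatory factor, fell from 842 and 965 to 448 and 417 (log2 difference -1.06 ± 0.14 SE, adjusted p = 0.00159). It was below WT in both AHR KO libraries.

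Among the metabolic and housekeeping lists, 4 of 32 glycolysis genes fell (12.5%), 3 of 28 hypoxia-inducible genes (10.7%), 2 of 29 cholesterol synthesis genes (6.9%), 5 of 79 nuclear OXPHOS genes (6.33%) and 2 of 35 unfolded protein response genes (5.71%), against 4.83% of all genes. None was called higher in these lists by limma. At an unadjusted p below 0.05 the numbers lower were 6, 10, 9, 14 and 5 in the same order, where 13.2% of all genes were lower, and the numbers higher were 0, 1, 0, 3 and 4. With any 1 of the 4 DMSO libraries left out, 1 glycolysis gene, 0 or 1 hypoxia-inducible genes and none of the other 3 lists fell, while other alternatives called up to 8, 8, 9, 6 and 4 lower. Fbp2 encodes a fructose bisphosphatase, an enzyme of gluconeogenesis rather than glycolysis. It had 2549 and 2607 in WT and 1979 and 1919 in AHR KO (log2 difference -0.40 ± 0.054 SE, adjusted p = 0.00158). Of 25 fatty acid synthesis genes 3 rose and 1 fell (16% called, against 9.05% of all genes), but 1 rose and none fell with any 1 of the DMSO libraries left out. The desaturase family gene Fads3 rose 3.24-fold from 162 and 175 to 537 and 554 (log2 difference 1.69 ± 0.13 SE, adjusted p = 7.37e-05). Of 37 fatty acid oxidation and PPAR target genes 2 rose and 2 fell, but 1 rose and 1 fell without WT replicate 2 and none did with another DMSO library left out. With all libraries 5.41% of the fatty acid oxidation and PPAR list rose and 5.41% fell, against 4.21% and 4.83% of all genes. The median of that list was -0.13, and at an unadjusted p below 0.05, 2 of its genes were higher and 12 lower. Of 81 cytosolic ribosomal protein genes 6 fell (7.41%). In the ribosomal list 24 were lower at an unadjusted p below 0.05, 1 or 2 fell with 1 of the DMSO libraries left out, and 2 to 14 fell under other alternatives. Of 13 mitochondrially encoded genes mt-Nd3 alone rose (log2 difference 0.53 ± 0.089 SE, adjusted p = 0.00538), a call lost without AHR KO replicate 3 (adjusted p = 0.0608). No circadian clock gene of 17 and no replication-dependent histone gene of 33 was called by limma, against 3 and 4 at an unadjusted p below 0.05. Of the 33 histone genes 12 averaged under 10 in the 4 DMSO libraries and passed the filter only through the FICZ libraries. None of the other 21 was called.

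Among the genes with the largest changes, the 3 highest, set by the log2 difference among called genes with a mean of at least 50 and pseudogenes apart, lay on chromosome 12, the chromosome of Ahr. Prkar2b (ENSMUSG00000002997, chromosome 12, 31958476 to 32061296), a regulatory subunit of protein kinase A, had 7.46 and 11.7 in WT and 206 and 164 in AHR KO (log2 difference 4.16 ± 0.41 SE, adjusted p = 0.000311). Atp6v1c2 (ENSMUSG00000020566, chromosome 12, 17284721 to 17329359), a subunit of the vacuolar proton pump, had 11.3 and 8.37 against 165 and 199 (log2 difference 4.09 ± 0.40 SE, adjusted p = 0.000271), and Mboat2 (ENSMUSG00000020646, chromosome 12, 24830879 to 24964397), a lysophospholipid acyltransferase, had 45.2 and 30.5 against 509.9 and 461 (log2 difference 3.67 ± 0.23 SE, adjusted p = 4.49e-05). All 3 were low in both WT libraries and far above them in both AHR KO libraries. The ribosomal protein gene Rps7 (ENSMUSG00000061477, chromosome 12, 28630854 to 28635953) fell from 12832 and 12101 to 5978 and 5839 (log2 difference -1.08 ± 0.073 SE, adjusted p = 5.17e-05), and Greb1, known as a gene induced by estrogen, from 1069.7 and 944 to 361 and 254 (log2 difference -1.73 ± 0.26 SE, adjusted p = 0.00265). Lamb1, a laminin chain, rose from 6.95 and 18.1 to 62.0 and 132 (log2 difference 2.89 ± 0.49 SE, adjusted p = 0.0051), a call lost without AHR KO replicate 3 (adjusted p = 0.0666).

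On chromosome 12, 61 of 446 tested genes were called (13.7%), the highest share of any autosome, next to 12.2% on chromosome 19 and 8.86% over all chromosomes but 12. Within 20 Mb of Ahr 24 of 106 genes other than Ahr were called (22.6%), 9 of them at 2-fold or more (8.49%). On the rest of the chromosome 36 of 339 were called (10.6%), 7 at 2-fold or more (2.06%). In narrower windows 6 of 33 genes were called within 5 Mb (18.2%, against 13.1% on the rest of the chromosome) and 8 of 46 within 10 Mb (17.4%, against 13%). At 2-fold or more the shares were 9.09% within 5 Mb and 8.7% within 10 Mb, against 3.16% and 3.01% on the rest. The plot of chromosome 12 genes by distance from Ahr shows the named genes other than Agr2 on the negative side, toward the start of the chromosome. The 20 Mb window, the one of the 3 with the highest share called but the lowest share at 2-fold or more, was chosen after the values were seen and the shares were not tested. Whether these genes follow from the loss of the receptor or from DNA that was inherited together with the altered Ahr allele cannot be told apart in these libraries, as both go with the genotype.

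**Figure D5:**
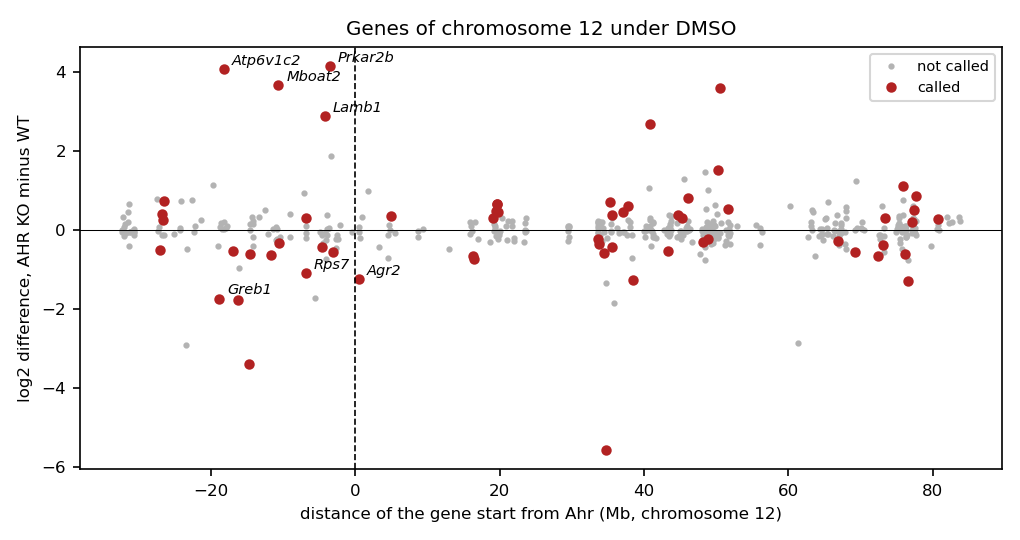
Log2 difference under DMSO (AHR KO minus WT) of each tested gene of chromosome 12 against the distance of its start from Ahr in Mb, red where called and grey where not, with Ahr at the dashed line and 7 genes near it named. Within 20 Mb of Ahr, 24 of 106 genes were called, and within 5 Mb 6 of 33.

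Genes with large changes outside these lists included Irs1, an adaptor of the insulin receptor, with 83.7 and 69.8 in WT and 346 and 342 in AHR KO (log2 difference 2.15 ± 0.18 SE, adjusted p = 9.23e-05). Entpd3, an enzyme that hydrolyses extracellular nucleotides, had 90.1 and 108 against 419 and 426 (log2 difference 2.09 ± 0.17 SE, adjusted p = 9.23e-05). Kirrel, an adhesion protein, had 73.0 and 62.2 against 300.0 and 280.5 (log2 difference 2.09 ± 0.24 SE, adjusted p = 0.000765). Their fold changes were 4.48, 4.27 and 4.29, and the groups did not overlap. The semaphorin Sema6d fell from 412 and 329 to 93.0 and 93.2 (log2 difference -1.97 ± 0.31 SE, adjusted p = 0.0038). Gpr35, a receptor known to respond to kynurenic acid, fell from 74.1 and 122 to 21.9 and 26.2 (log2 difference -1.94 ± 0.32 SE, adjusted p = 0.00432). The gene model Gm47283, annotated on chromosome Y, fell from 451 and 240.5 to 4.21 and 8.52 (log2 difference -5.55 ± 0.40 SE, adjusted p = 5.99e-05), while Xist had 3883 to 4557 normalised counts in the 4 libraries and the Y-linked Ddx3y and Eif2s3y were at 0. The Y-linked Kdm5d had 15.3 and 12.98 in WT and 6.61 and 9.33 in AHR KO and Uty 6.02 and 6.8 against 2.82 and 0.879. Both were under the filter and not tested, and both were lower in the AHR KO DMSO libraries, as Gm47283 was. Under FICZ the genotypes overlapped in both genes. There Kdm5d had 8.7, 9.1 and 7.3 in WT and 6.9 and 12.7 in AHR KO, and Uty 7.3, 2.1 and 4.1 against 7.2 and 2.3. Pseudogenes made up 20 of the 1153 called genes (1.73%) and 2.14% of the genes tested; Gm7993 rose from 5.84 and 0 to 272 and 295 (log2 difference 6.76 ± 0.92 SE, adjusted p = 0.0017), and reads may be shared between such copies and their parent genes.

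The difference between the genotypes was also set beside that under FICZ, where limma called 2544 genes (20%) with 2 AHR KO and 3 WT libraries. Of the 1153 genes called under DMSO, 963 were called with the same sign under FICZ (83.5% of the DMSO calls and 37.9% of the FICZ calls) and 4 with the opposite sign. The 2 comparisons share organoid lines but no library. A test of the interaction, the FICZ difference minus the DMSO difference, called 57 genes (0.447%), 25 of them among the DMSO calls. Nqo1 differed by -1.21 under DMSO and -2.62 under FICZ on the log2 scale (interaction -1.41 ± 0.11 SE, adjusted p = 0.000257), and Ccn2 by 1.18 and 2.51 (interaction 1.33 ± 0.12 SE, adjusted p = 0.000575). For Cyp1b1, with -5.44 under DMSO and -5.82 under FICZ, the interaction was not called (adjusted p = 0.881). The same holds for Il33, with 1.92 and 2.54 (adjusted p = 0.414), Vdr, with -1.59 and -1.74 (adjusted p = 0.955), and Mmp7, with 2.06 and 2.31 (adjusted p = 0.877).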

How the data were processed

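RNA-seq was done on 9 libraries of mouse colon organoids: 2 AHR KO and 2 WT under DMSO and 2 AHR KO and 3 WT under FICZ (5 nM, 4 h). The authors deposited 1 table of normalised signal per gene (normalised read counts, not whole numbers). The submitters' processing notes name STAR 2.5.2a, RSEM 1.2.31, DESeq2 1.16.1 and GRCm38, and the paper's methods name another read counter, so the exact route is not certain. Steps between low values differed from gene to gene, so whole reads could not be recovered and read depth is unknown. Of 48795 rows, 99.3% matched a GENCODE M21 gene.

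The 12741 genes whose 9 values averaged at least 10 were fitted with limma 3.58.1 (R 4.3.3) on log2(value + 1), with the 4 groups as coefficients, 5 residual degrees of freedom and eBayes with trend. Tests were two-sided and p-values were adjusted by Benjamini-Hochberg over all genes tested; below 0.05 a gene was called. A log2 difference on this scale understates the change of low genes. The script was tested on simulated data. Alternatives changed the pseudocount, filter, scaling, groups fitted, variance prior, line or replicate term, GC and length, pseudogenes and each library in turn.

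The members and gene lists were chosen with earlier results of these data known. Named were all members of the AHR target battery and AHR complex, the 15 highest and 15 lowest called genes that averaged at least 50 and did not overlap (pseudogenes apart), up to 6 called members of each other list by adjusted p, and a set of stem, YAP and identity genes whatever their values; of these, the text gives the ones it turns on, and a few are counted in their lists but not reported here by name. Fbln1, Pdgfrb, Csf1r, Vwf, Elavl4, Epcam, Elf3, Lgals4, Xist, Areg, Ereg, F3, Greb1, Kdm5d and Uty were named after their values were seen. Promoters and starts are RefSeq's on GRCm38.p6; coordinates of genes are GENCODE's on GRCm38.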

Additional observations from a re-analysis of the deposited data

Results flagged for a closer look

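For the genes below the difference between AHR KO and WT organoids was not the same under DMSO and FICZ by a test of the interaction in limma, and none of the groups was large enough to test for an outlying library. Values are log2 differences of AHR KO minus WT, and the interaction is the FICZ difference minus the DMSO difference. Of the 12 tested AHR battery genes 5 had a called interaction, and 4 of the 10 that averaged at least 10 in the DMSO libraries, against 0.447% of all genes. It was -1.71 for Tiparp (-0.38 under DMSO, -2.09 under FICZ, adjusted p = 0.000155), -1.41 for Nqo1 (-1.21 and -2.62, 0.000257) and -0.71 for Nfe2l2 (-0.24 and -0.95, 0.00206), which were lower in AHR KO by more under FICZ. For Ahrr it was -3.38 (-1.32 and -4.71, 0.01), but its DMSO values were at or near 0 in both genotypes, so its DMSO difference could not be larger and the size of its interaction depends on that floor. Aldh3a1 was higher in AHR KO under DMSO and lower under FICZ (1.68 and -1.23, interaction -2.91, 0.0356).

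Of the 18 tested YAP/TEAD targets 2 had a called interaction, as did 2 of the 17 that averaged at least 10 in the DMSO libraries. These 2 were higher in AHR KO by more under FICZ, by 1.33 for Ccn2 (1.18 and 2.51, adjusted p = 0.000575) and 0.81 for Ccn1 (0.60 and 1.41, 0.0222). The stem cell genes Lgr5 (0.22 and 1.46, interaction 1.24, 0.00784) and Sox9 (0.12 and 1.13, interaction 1.01, 0.0113) were called under FICZ and not under DMSO. The genes that fell included Sytl2 (-1.91 and -3.23, interaction -1.32, 0.0416), Ccl28 (-1.65 and -3.57, interaction -1.92, 0.0206) and Ereg (-0.29 and -1.19, interaction -0.90, 0.00362), each with the larger difference under FICZ. Tnfaip2 was higher in AHR KO by 1.11 under DMSO and by 0.15 under FICZ (interaction -0.96, 0.00784). Without AHR KO DMSO replicate 1 or 3, 23 genes had an interaction, against 57 with all libraries. No explanation was tested.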

How the results depend on the processing

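Of the 220 called genes that the rule or a later choice named, 90 were called with the same sign under every one of the 22 alternatives in which they were tested, which for 14 of them was 21. The other 130 were each lost without at least 1 of the 4 DMSO libraries, 65 of them in no alternative other than leaving out a library, and no named call changed sign. With 1 library left out in turn, the number of genes called was 389 to 1465 (1153 with all), with 201 to 642 higher, 188 to 823 lower and 189 to 332 at 2-fold or more; 1312 to 3084 were called under FICZ and 23 to 78 for the interaction. A group left with 1 library was assumed to vary like the others. Fitting only the 2 DMSO groups called 1624 genes, with 954 lower, and a mean filter of 100 left 196 at 2-fold or more; the cause was not tested beyond the smaller sets of libraries and genes. Of the calls 46.6% were higher, against 55.4% with upper-quartile scaling and 59.1% without WT DMSO replicate 2; no setting moved the median gene by more than 0.1. The replicate numbers are those of the sample descriptions; the titles number the libraries of each group anew. The deviations of the libraries with number 3, the one that both DMSO groups share in the descriptions, correlated at r = 0.014. With 2 libraries per group the deviations within a group mirror each other, so either pair of the titles gives the same value. This 1 value cannot decide whether libraries with the same number share more than a number, and that was not tested. With the replicate block 1052 genes were called by the descriptions' numbers and 959 by the titles', the latter added after seeing the data. The 2 libraries per genotype limit the precision, and read depth is unknown.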

Other observations

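Several called genes are annotated as pseudogenes. Gm6472 had 3236 and 3842 normalised counts in WT and 9485 and 9284 in AHR KO under DMSO (log2 difference 1.41 ± 0.077 SE, adjusted p = 2.38e-05, limma), and Mgam2-ps had 470.3 and 391 and 1081 and 1156 (log2 difference 1.38 ± 0.16 SE, adjusted p = 0.000754). In contrast, 9130208D14Rik had 1171 and 1148 in WT and 394 and 392 in AHR KO (log2 difference -1.56 ± 0.19 SE, adjusted p = 0.00103). Each kept its call in the 21 alternatives in which it was tested; leaving out pseudogenes removed them. Whether their reads come from these loci or from related genes was not tested.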
